A study of Mus musculus with 7 samples.

Results

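The libraries compared were 4 RNA sequencing libraries from mouse spleens of the sHA-X group, set apart by their albumin (Alb) messenger RNA. They were chosen by a measured value: sHA-X-3 and sHA-X-4, with Alb of at least 100 FPKM (fragments scaled to transcript length and library size), formed the albumin-high pair, and sHA-X-1 and sHA-X-2, with less, the albumin-low pair. This took 2 and 2 of the 4 sHA-X libraries, out of 7 libraries in the series. The remaining 3 libraries, from the PBS (phosphate-buffered saline) group, were the background. Per the series' design text, the biomaterial sHA-X was injected 4 times, the control group had PBS, and hepatocytes were then injected into the spleens of both groups. All 7 spleens were collected 30 days after the hepatocytes. Strain, age, the source of the hepatocytes, and whether each library was 1 animal are not given in the sources used here. The labels do not set the 4 sHA-X libraries apart in any way. Because Alb formed the pairs, every difference between them is a description and no test was made.

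Hepatocytes are the main cells of the liver. They make most plasma proteins, including albumin, the fibrinogen chains and the apolipoproteins, and they carry the enzymes of drug, amino acid, bile acid and glucose metabolism. The spleen filters blood and is built of lymphocytes, macrophages and erythroid cells. It makes little of these secreted proteins, although its macrophages share some genes with hepatocytes, among them Apoe and Trf. In bulk RNA, fewer hepatocytes and less RNA per hepatocyte cannot be told apart.

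Alb was 2.17 FPKM (143 reads) in sHA-X-1 and 8.49 FPKM (519 reads) in sHA-X-2, the nearest library below the threshold. It was 325.3 FPKM (22420 reads) in sHA-X-3, the nearest above it, and 370.4 FPKM (28470 reads) in sHA-X-4. In PBS replicates 1 to 3 it was 0.271, 4.10 and 1.15 FPKM. Both albumin-low libraries were far nearer to the PBS libraries than to the albumin-high ones. The level of sHA-X-1 lay within the PBS range and that of sHA-X-2 above it.

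Alb lies on chromosome 5 (90460870 to 90476602), Apoa1 on chromosome 9 (46228630 to 46230469) and Fgb on chromosome 3 (83042246 to 83049863), in the RefSeq annotation of GRCm38.p6 (mm10). The promoter just before the start of a gene is where liver factors bind. Of 146 RefSeq promoters found for 129 of the 163 genes that were higher in both albumin-high libraries by the rule given after the sequences, 11 (7.53%) held the letters GTTAATNAT, a nearly palindromic element of liver promoters, on either strand within 250 bases before the start. The same letters stood in 0.737% of all 32851 promoters in the RefSeq table, and in 0.408% of the 12267 promoters of genes with a mean of at least 1 FPKM.

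Within 100 bases of the start, 8 promoters had a match. Of these, 4 lay before an inner transcript start, within or across the end of the gene's listed span, and are not shown. The other 4 are shown because they show how close the match lies to the start, and Apoa1 and Fgb, which are also markers, are shown without one. Capitals mark the match, and sequences run 5′ to 3′ on the strand of the gene.
Alb, albumin, chr5:90460770-90460869, plus strand: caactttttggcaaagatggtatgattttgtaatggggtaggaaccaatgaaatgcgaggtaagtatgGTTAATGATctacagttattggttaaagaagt
Gc, the vitamin D binding protein, chr5:89457899-89457998, minus strand: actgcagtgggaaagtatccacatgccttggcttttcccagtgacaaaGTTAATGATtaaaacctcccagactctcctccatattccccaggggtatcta
Fga, the fibrinogen alpha chain, chr3:83026053-83026152, plus strand: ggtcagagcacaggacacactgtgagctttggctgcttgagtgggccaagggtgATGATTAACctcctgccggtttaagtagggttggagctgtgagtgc
Igfbp1, an insulin-like growth factor binding protein, chr11:7197687-7197786, plus strand: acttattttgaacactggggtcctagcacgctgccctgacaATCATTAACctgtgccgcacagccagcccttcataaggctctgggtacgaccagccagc
Apoa1, apolipoprotein A-I, chr9:46228530-46228629, plus strand: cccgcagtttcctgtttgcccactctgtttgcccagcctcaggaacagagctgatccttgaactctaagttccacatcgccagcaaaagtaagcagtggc
Fgb, the fibrinogen beta chain, chr3:83049864-83049963, minus strand: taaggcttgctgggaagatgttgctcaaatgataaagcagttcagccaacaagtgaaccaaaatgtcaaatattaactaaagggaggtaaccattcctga

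The first base of the match lay 32 bases before the start in Alb, 46 in Fga, 52 in Gc and 59 in Igfbp1. A match of letters describes the sequence and was not measured as a bound site. The TATA box letters TATAAA stood in 25.3% of the promoters of higher genes on either strand, against 12.4% of all promoters and 6.90% of those of genes with a mean of at least 1 FPKM. The letters CAAAGTCCA of an HNF4A site stood in 3 promoters (2.05%, against 0.384% of all and 0.351% of those of genes at 1 FPKM or more). The FOXA letters TGTTTAC stood in 3.42%, against 3.17% of all and 2.13% of those of genes at 1 FPKM or more.

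Genes were compared by a gap rule that uses no mean of a pair. A gene was called higher when the lower of the albumin-high libraries was at least 2 times the higher of the albumin-low libraries, among the 11967 genes with a mean of at least 1 FPKM over the 4 libraries. By this rule 163 genes (1.36%) were higher and 1 gene (0.00836%) was lower in both albumin-high libraries. Without regard to size, 1692 genes (14.1%) lay above both albumin-low libraries and 2327 (19.4%) below. The rule's sides were set by Alb, so the counts describe these libraries and are no evidence for the choice.

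Some libraries stood apart by genes of other tissues. Recovered reads ranged from 29543963 to 37142218 per library. The summed FPKM of 20 skeletal muscle genes was 287.2 in sHA-X-2 and between 16.9 and 26.2 in the other 6 libraries. In PBS-2, 20 pancreatic acinar genes summed to 1526 FPKM, against 18.1 to 36.8 elsewhere. Adipocyte genes summed to 176.9 FPKM in sHA-X-2, 105.4 in sHA-X-4, and between 31.9 and 72.1 in the other 5. With sHA-X-2 left out, which leaves 1 albumin-low library, 199 genes were higher and 15 lower, and with sHA-X-1 left out 197 were higher and 40 lower. With sHA-X-3 or sHA-X-4 left out, 140 or 141 were higher, and 11 lower in either case.

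**Figure D1:**
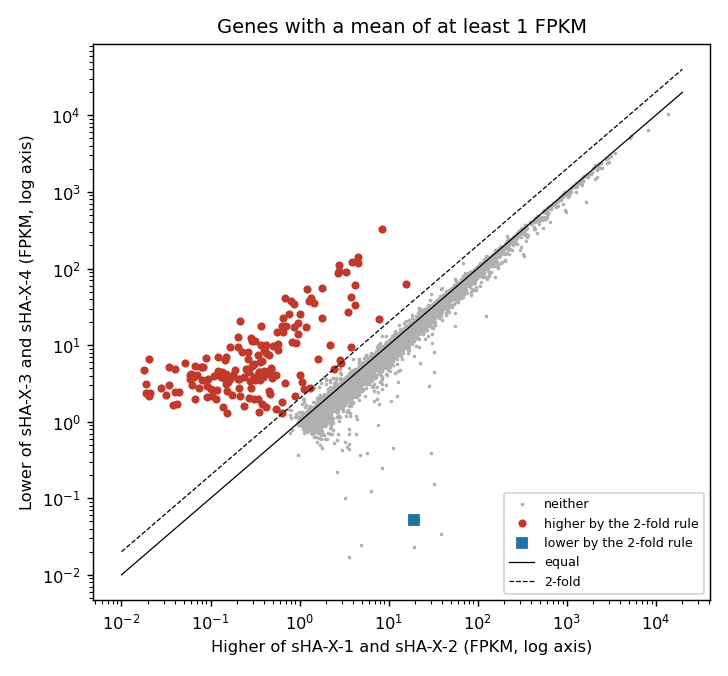
Each point is a gene, placed by the higher of its levels in sHA-X-1 and sHA-X-2 (horizontal) and the lower of its levels in sHA-X-3 and sHA-X-4 (vertical), in FPKM on log axes, for genes above 0 on both. Of the 163 higher genes, 162 are drawn (red), above the dashed 2-fold line, and Pvalb, the 1 lower gene, is the blue square.

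The higher genes formed a broad hepatocyte profile. Of the 163, 126 were members of the gene lists used here, and 121 belonged to the 13 lists of liver functions. Those lists held 397 distinct genes in the table, of which 267 had a mean of at least 1 FPKM and 130 did not. Of the 267, 121 were higher and 0 lower, beside 1.36% and 0.00836% of all genes. Of 126 members with a PBS mean under 1 FPKM, 114 were higher. Of 141 members with a PBS mean of at least 1 FPKM, 7 were higher. A gene that reached the mean of 1 FPKM only through sHA-X-3 and sHA-X-4 was bound to be high there, so these counts describe the measured genes and not the lists as a whole. This limit and the share over all genes apply to the counts of each liver list below.

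**Figure D2:**
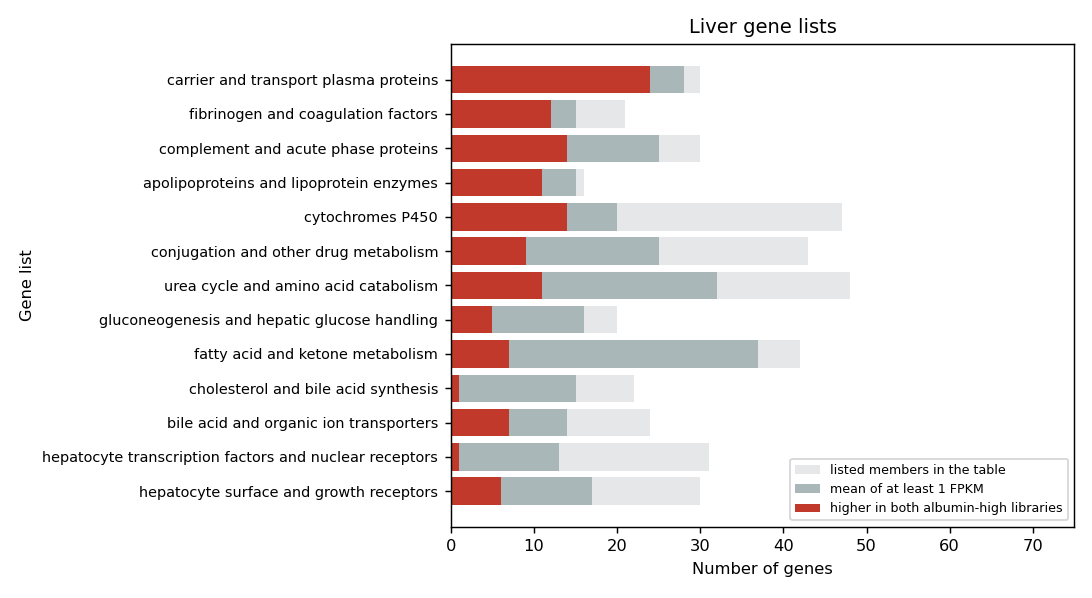
Number of genes of each of the 13 liver gene lists in the deposited table (light grey), with a mean of at least 1 FPKM over the 4 sHA-X libraries (grey) and higher in both albumin-high libraries (red). The red bar takes up most of the grey bar for plasma proteins, coagulation factors, apolipoproteins and cytochromes P450, and 1 gene for bile acid synthesis and for transcription factors.

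The carrier and transport proteins of plasma gave the most genes, with 24 of 28 measured members higher. Their median gap was 24.7-fold, where the median over all genes was 0.900, but the filter on the mean also favours large gaps. Apoa1, which forms the core of high-density lipoprotein particles, was 0.634 and 4.50 FPKM in sHA-X-1 and sHA-X-2 and 155.4 and 141.6 FPKM in sHA-X-3 and sHA-X-4. Ttr encodes transthyretin, which carries thyroxine, and its level was 0.214, 1.33, 49.2 and 41.0 FPKM across sHA-X-1 to sHA-X-4. Both markers put the same libraries on the same sides as Alb, and both were between 0.212 and 1.33 FPKM in the PBS libraries. Both were given as markers together with Alb, so this is no independent check of the sides.

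Other abundant plasma proteins followed. Serpina3k, a serine protease inhibitor, was 0.265, 2.76, 112.1 and 133.5 FPKM in sHA-X-1 to sHA-X-4. Ahsg, the fetuin A of plasma, was 0.571, 2.80, 94.7 and 92.8 FPKM. Hpx, the haem scavenger hemopexin, was 2.73, 1.85, 88.4 and 88.5 FPKM. Hpx was nearly equal in the albumin-high libraries, and it was one of the genes for which sHA-X-1 exceeded sHA-X-2. Serpina1a to Serpina1e, the alpha-1 antitrypsin genes, were all higher, with Serpina1e at 117.8 and 131.1 FPKM, but these near-identical paralogs may share reads.

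The 4 members that were not higher were Trf, Selenop, Serpinf1 and Ang. Trf, the iron carrier transferrin, was 215.7 and 179.0 FPKM in the albumin-low and 304.7 and 268.6 FPKM in the albumin-high libraries, so the pairs did not overlap and the gap was 1.24-fold. Selenop, a selenium carrier, was between 463.0 and 510.8 FPKM in all 4. Both had more than 100 FPKM in every PBS library.

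Of the fibrinogen and coagulation genes, 12 of 15 measured members were higher, with a median gap of 24.8-fold. Fgb was 0.661 and 1.21 FPKM in sHA-X-1 and sHA-X-2, 54.0 and 57.4 FPKM in sHA-X-3 and sHA-X-4, and 0, 0.275 and 0.316 FPKM in the PBS libraries. Fga and Fgg, the other fibrinogen chains, were 25.3 and 34.6 FPKM in sHA-X-3 and 31.4 and 37.5 FPKM in sHA-X-4. All 3 chains, which assemble into 1 protein, were therefore present together. Prothrombin (F2) was 9.56 and 10.1 FPKM and plasminogen (Plg) 11.2 and 12.6 FPKM in the albumin-high libraries, and both were under 0.32 FPKM in the albumin-low ones. F5, F10 and Pros1 were not higher, and each was above 2.8 FPKM in every PBS library.

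**Figure D3:**
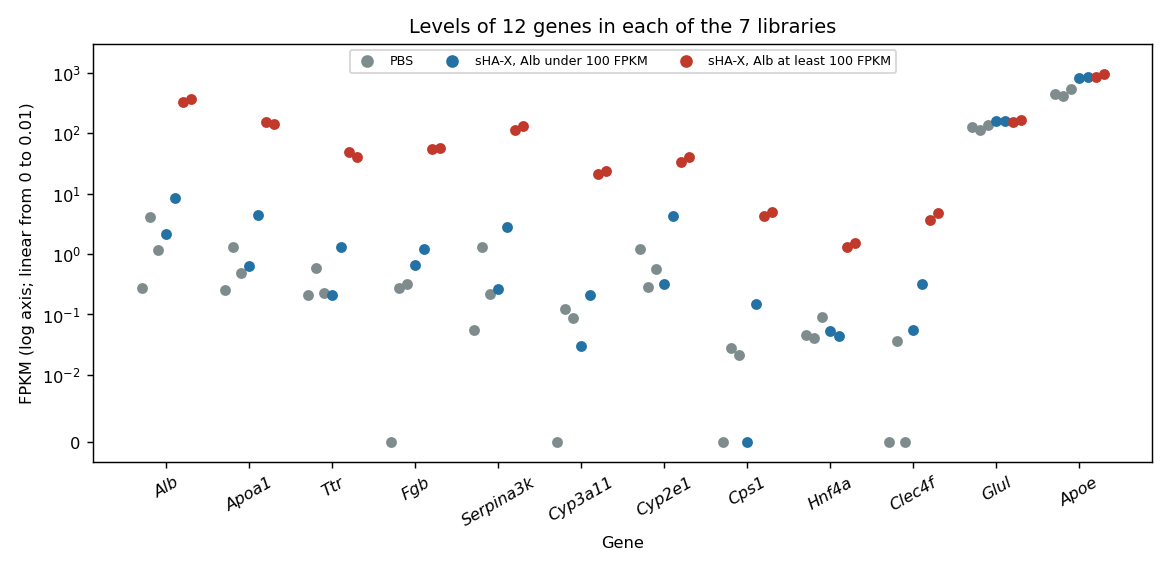
Level of 12 genes in each library, in FPKM on a log axis that is linear below 0.01, with PBS libraries in grey, albumin-low sHA-X libraries in blue and albumin-high ones in red, each in replicate order. The red points stand far above the rest for Alb, Apoa1, Ttr, Fgb, Serpina3k, Cyp3a11, Cyp2e1, Cps1, Hnf4a and Clec4f, while Glul and Apoe are close to level over the 4 sHA-X libraries.

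Apolipoproteins and lipoprotein enzymes had 11 of 15 measured members higher, with a median gap of 26.0-fold. Apoa2 was 0.870, 1.80, 69.3 and 56.0 FPKM in sHA-X-1 to sHA-X-4. Apob, the structural protein of very low-density lipoprotein, was 0.0763, 0.130, 3.80 and 5.07 FPKM. Apoc1 differed less, at 15.7 and 12.7 FPKM against 95.9 and 62.3 FPKM, and was between 13.3 and 17.1 FPKM in PBS. Apoe, which macrophages also make, was 808.4, 839.5, 853.2 and 938.3 FPKM, a gap of 1.02-fold, and between 418.3 and 538.7 FPKM in PBS.

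Complement and acute phase genes were mixed. The complement genes C8a, C8b, C8g, C9 and Hc and the lectin gene Mbl2 were among the 14 of 25 measured members that were higher. C9 was 0 and 0.0596 FPKM in the albumin-low and 4.10 and 5.84 FPKM in the albumin-high libraries. C3, C4b, Cfb and C2, which were between 13.5 and 166.6 FPKM in PBS, were not higher, nor was C6, a terminal complement gene. C3 was 211.4, 232.6, 181.3 and 193.1 FPKM in sHA-X-1 to sHA-X-4.

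The serum amyloid A genes, acute phase proteins, differed among themselves. Saa1 was 0.578 and 0.0328 FPKM in sHA-X-1 and sHA-X-2 and 10.9 and 10.4 FPKM in sHA-X-3 and sHA-X-4, and was listed at 0 in all 3 PBS libraries. Saa2 was 0.360, 0.221, 7.46 and 5.94 FPKM and likewise at 0 in PBS. Saa3, a form made outside the liver, was 124.4, 5.33, 33.5 and 24.2 FPKM, highest in 1 albumin-low library and lowest in the other. Hp, haptoglobin, was 62.9, 68.6, 132.6 and 118.9 FPKM, a gap of 1.73-fold that fell short of the rule.

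Among cytochromes P450, which oxidise drugs, steroids and fatty acids, 14 of 20 measured members were higher. Cyp3a11, a main drug-metabolising enzyme of mouse liver, had the largest gap of the genes ranked with a pseudocount of 0.1 FPKM, at 0.0305 and 0.214 FPKM against 20.8 and 23.8 FPKM. Cyp2d10 was 0 and 0.0205 FPKM against 6.75 and 6.57 FPKM. Cyp2e1, an enzyme of ethanol and acetaminophen oxidation, was 0.320, 4.19, 33.0 and 40.5 FPKM. The difference between the albumin-low libraries was 13.1-fold for Cyp2e1, against 3.91-fold for Alb. Adipose tissue also has this gene, and adipocyte genes summed higher in sHA-X-2 than in sHA-X-1 (176.9 against 52.5 FPKM). The part of other tissue in the sHA-X-2 level was not tested.

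Of the conjugation and other drug metabolism genes, 9 of 25 measured members were higher, all of them esterase, glucuronosyltransferase or alcohol dehydrogenase genes. Ces3a, a carboxylesterase, was 0.0300, 0.565, 14.9 and 17.4 FPKM in sHA-X-1 to sHA-X-4. Ugt2b36, a glucuronosyltransferase, was 0.0166 and 0.0179 FPKM against 4.77 and 5.04 FPKM. The glutathione transferases Gstm1, Gstt1, Gstz1, Gstp1 and Gsta3 were not higher. Gstp1 was 78.6, 73.6, 95.4 and 88.1 FPKM, a gap of 1.12-fold.

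Of the urea cycle and amino acid genes, 11 of 32 measured members were higher. Cps1, which starts the urea cycle, was 0, 0.149, 4.23 and 4.90 FPKM in sHA-X-1 to sHA-X-4. Bhmt, which remethylates homocysteine, was 0.121, 1.19, 18.4 and 17.0 FPKM. Of the later steps, Otc, under 1 FPKM and given below, shared the pattern, while Ass1, Asl and Arg1 fell short of the rule. Ass1 and Asl were between 10.1 and 23.0 FPKM in PBS and had gaps of 1.32-fold and 1.04-fold. Arg1, arginase of hepatocytes and of macrophages, was 16.7, 0.593, 7.84 and 8.68 FPKM, so the albumin-low libraries lay on either side of the albumin-high ones.

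Glucose and fat genes were mixed as well. Of 16 measured glucose genes, 5 were higher, among them G6pc, Pck1, Fbp1 and Igfbp1. G6pc, the last enzyme of glucose release, was 0, 0.134, 4.51 and 4.63 FPKM in sHA-X-1 to sHA-X-4. Pck1, an early step of gluconeogenesis that adipose tissue also has, was 0.0119, 2.83, 6.38 and 6.62 FPKM, close to the edge of the rule. Of 37 measured fatty acid and ketone genes, 7 were higher. Fabp1, the liver fatty acid binding protein, was 1.22, 4.15, 65.8 and 60.1 FPKM. Genes of oxidation and synthesis that most cells have, such as Hadha and Scd1, were not higher. Hadha was 62.8, 59.6, 59.7 and 59.6 FPKM.

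Few genes of the cholesterol and bile acid list passed both the level and the gap. Of 15 measured members of the cholesterol and bile acid list, 1 was higher, Slc27a5, a bile acid ligase, with 0.0403, 0.203, 3.61 and 4.04 FPKM. Cyp7a1, whose step limits how fast bile acids form, was 0, 0.0323, 0.0788 and 0.103 FPKM (0, 4, 11 and 16 reads) and at 0 in PBS. Of the 7 members under 1 FPKM, 6 had a gap of at least 2-fold with no minimum of reads, beside 388 of all 10206 genes under 1 FPKM. The trace of Cyp7a1 stood beside 2.15 and 1.62 FPKM of Cyp8b1, the sterol 12-alpha-hydroxylase, in sHA-X-3 and sHA-X-4, and 0.129 and 0.0346 FPKM in sHA-X-1 and sHA-X-2. Cyp7b1 just missed the rule, at 1.91 and 1.89 FPKM against 3.79 and 4.11 FPKM.

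Of the bile acid and organic ion transporters, 7 of 14 measured members were higher. Slc10a1, the sodium-dependent bile acid importer of the sinusoidal side, was 0, 0.0921, 2.12 and 2.97 FPKM in sHA-X-1 to sHA-X-4. Slco1b2 was 0, 0.0700, 4.03 and 5.07 FPKM. Abcb11, the bile salt export pump of the canalicular side, had a mean under 1 FPKM, at 0 in both albumin-low libraries and 1.13 and 1.09 FPKM in the albumin-high ones. Importers and the exporter were thus seen in the same libraries.

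Transcription factors that define hepatocytes were low even in the albumin-high libraries. Hnf4a, a nuclear receptor central to hepatocyte identity, was 0.0536 and 0.0433 FPKM (8 and 6 reads) in the albumin-low and 1.31 and 1.54 FPKM (205 and 268 reads) in the albumin-high libraries. The PBS libraries had 0.0466, 0.0402 and 0.0895 FPKM. Foxa2 was at most 0.0787 FPKM in any library. Of 13 measured factors, 1 was higher, Creb3l3, a liver and gut factor, at 0.260 and 0.354 FPKM against 2.20 and 1.35 FPKM. Of the 18 factors under 1 FPKM, 12 had a gap of at least 2-fold with no minimum of reads. Over all 10206 genes under 1 FPKM, 388 had such a gap. With at least 20 reads in both albumin-high libraries, 5 factors had it: Foxa3, Hnf4a, Nr1h4, Onecut2 and Ppara. The share of all genes with such reads and gap was not computed. Cebpa, which myeloid cells also use, was 17.9, 22.2, 17.8 and 20.4 FPKM.

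Of the hepatocyte surface and growth genes, 6 of 17 measured members were higher. Gjb1, a connexin of hepatocyte gap junctions, was 0.0308, 0.248, 4.80 and 5.08 FPKM in sHA-X-1 to sHA-X-4. The hepatocyte keratins Krt8 and Krt18 were 2.78 and 3.99 FPKM in sHA-X-3 and 3.63 and 3.31 FPKM in sHA-X-4. Asgr2, a subunit of the asialoglycoprotein receptor, was close to the edge of the rule, at 0.628 and 0.513 FPKM against 2.38 and 1.28 FPKM.

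Genes of both ends of the liver lobule were present. Near the portal vein, hepatocytes have Cyp2f2, which was 0.482, 0.185, 5.08 and 5.53 FPKM in sHA-X-1 to sHA-X-4. Near the central vein they have Cyp2e1 and Glul. Glul, glutamine synthetase, was 157.3, 162.1, 152.0 and 165.5 FPKM, with 113.3 to 136.6 FPKM in PBS, so it did not separate the pairs. The periportal and pericentral lists each had 5 of 12 measured members higher.

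The albumin-high libraries had male-biased liver genes and little of the female-biased ones. Of the male-biased list, 8 of 12 measured members were higher, with a median gap of 33.2-fold. Mup20, the pheromone darcin of male urine, was 0, 0.682, 40.7 and 45.0 FPKM in sHA-X-1 to sHA-X-4. Hsd3b5, a steroid dehydrogenase, was 0, 0.0210, 2.38 and 2.95 FPKM, and Elovl3, a fatty acid elongase, was 0, 0.0341, 5.28 and 5.13 FPKM. Of 20 female-biased genes, 19 had a mean under 1 FPKM. Cyp2b13, Sult3a1, A1bg, Acot3 and Hao2 were at 0 in all 7 libraries, while Cyp2c40 was 1.10 and 0.864 FPKM in sHA-X-3 and sHA-X-4. The Y-linked gene Ddx3y, named after its values were seen, was between 28.0 and 38.2 FPKM in all 7 libraries.

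Outside the lists, 37 genes were higher, among them 8 further major urinary protein (Mup) genes besides Mup20. Mup3 was 0.0343 and 3.84 FPKM in the albumin-low and 121.4 and 134.7 FPKM in the albumin-high libraries, and Mup7 was 0.482, 3.31, 89.2 and 131.9 FPKM. These near-identical genes lie in 1 cluster and may share reads, so they are uncertain one by one. Other such genes, named after their values were seen, were H2-Q10, a class I molecule secreted by liver (7.78, 4.97, 23.0 and 22.1 FPKM), Uox, urate oxidase (0.0170, 0.146, 6.36 and 7.03 FPKM), and Agt, angiotensinogen (0.0162, 0.454, 4.29 and 4.25 FPKM).

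Over the 163 higher genes, the albumin-high libraries were much alike. The ratio of sHA-X-4 to sHA-X-3 over the 163 genes had a median of 1.06, with the middle 50% between 0.930 and 1.22, and 161 genes lay between 0.5 and 2. The extremes were Glyat, a glycine acyltransferase, at 0.456 and Igfbp1 at 1.80. The levels of the 163 genes ranked alike in both (Spearman's rho 0.95 across genes, which are not independent), and 101 genes were higher in sHA-X-4. Over all genes with a mean of at least 1 FPKM, rho for the same pair was 0.990. The 163 genes were chosen as high in both libraries, so part of the likeness over them was built in. Apoa1 was 47.8% of Alb in sHA-X-3 and 38.2% in sHA-X-4, and Cyp3a11 was 6.39% and 6.43%.

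The albumin-low libraries were not alike. Of the 163 genes, 140 were higher in sHA-X-2 than in sHA-X-1, and 22 the reverse. At the median gene, sHA-X-2 had 4.03% of the lower albumin-high level and sHA-X-1 had 0.782%. PBS replicates 1 to 3 had 0.178%, 1.45% and 0.553%, so sHA-X-1 lay within the PBS range and sHA-X-2 above it. In sHA-X-1, 40 genes were at 0 and 74 had under 3 reads. In sHA-X-2, 3 genes were at 0 and 23 had under 3 reads. Library sizes differed little, so the traces of single genes in sHA-X-1 are at the limit of this depth.

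**Figure D4:**
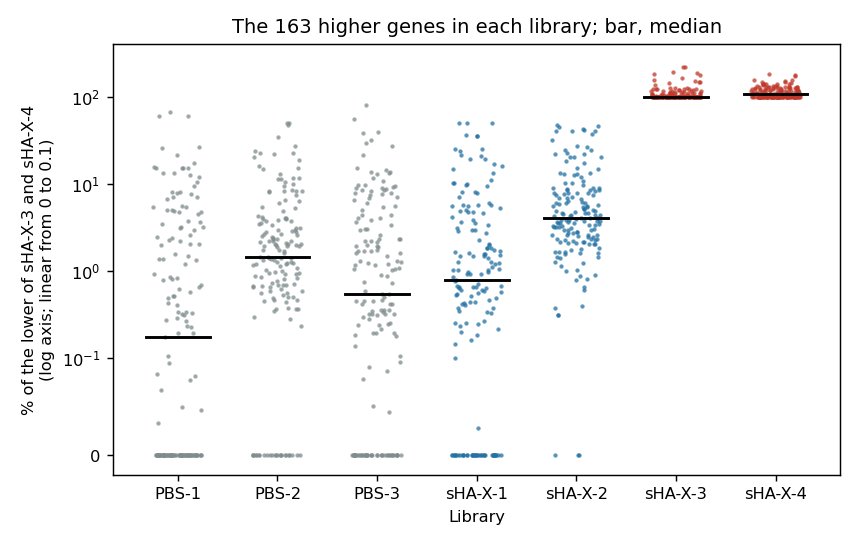
Level of each of the 163 higher genes in each library as a percentage of the lower of its levels in sHA-X-3 and sHA-X-4, on a log axis that is linear below 0.1, with the median as a bar. The median is 0.782% in sHA-X-1 and 4.03% in sHA-X-2, against 0.178% to 1.45% in the PBS libraries (grey).

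Summed over reads, the 163 genes took 0.415% of recovered reads in sHA-X-3 (138109 reads, 95% Wilson interval 0.412% to 0.417%) and 0.446% in sHA-X-4 (165742 reads, 0.444% to 0.448%). They took 0.00898% in sHA-X-1 (2857 reads, 0.00866% to 0.00932%) and 0.0200% in sHA-X-2 (5918 reads, 0.0195% to 0.0205%). In PBS replicates 1 to 3 they took 0.00621%, 0.00997% and 0.00739%. These intervals cover counting error only and are no test. The 163 genes were chosen as higher in sHA-X-3 and sHA-X-4, so a larger share there was set by the choice. Even in the albumin-high libraries the hepatocyte profile was a small part of the RNA.

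The traces in the albumin-low libraries were uneven among genes. With at least 20 reads and at least 2 times the highest PBS library, 38 of the 163 genes passed in sHA-X-2 and 7 in sHA-X-1. The 7 were Apob, Cyp2f2, Fgb, H2-Q10, Hpx, Inmt and Serpina3m, named after their values were seen. Alb was not among them in sHA-X-1, where Hpx was 126% of Alb, compared with 27.2% in sHA-X-3. In PBS-2, which carried pancreatic RNA, Alb was higher than in sHA-X-1, and 102 of the 163 genes had their highest PBS level there. The part of RNA from other tissues in these traces was not tested.

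Of the markers of other liver cells with a mean of at least 1 FPKM, 1 was higher, beside 1.36% of all genes. It came from the 12 genes of Kupffer cells, the resident macrophages of liver. This was Clec4f, a lectin found on mouse Kupffer cells, named after its values were seen and located on chromosome 6 (83644542 to 83656116). It was 0.0551 FPKM (6 reads) and 0.316 FPKM (32 reads) in sHA-X-1 and sHA-X-2, and 3.68 FPKM (419 reads) and 4.72 FPKM (600 reads) in sHA-X-3 and sHA-X-4. In PBS it was 0, 0.0367 and 0 FPKM. Clec4f thus followed Alb across the 4 libraries. It reached the mean of 1 FPKM only through sHA-X-3 and sHA-X-4, so once measured it was bound to be high there.

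The other Kupffer genes did not follow Alb so closely. Vsig4, a complement receptor of resident macrophages, was 1.99, 2.87, 4.27 and 7.82 FPKM in sHA-X-1 to sHA-X-4 and at most 0.585 FPKM in PBS, without overlap and with a gap of 1.49-fold. Cd5l, made by spleen and liver macrophages, was 216.0, 211.8, 238.3 and 262.4 FPKM. Timd4, a phosphatidylserine receptor, was 35.8, 37.5, 32.3 and 25.4 FPKM. The summed level of the list was 862.3, 851.4, 868.5 and 895.6 FPKM in sHA-X-1 to sHA-X-4, and 525.7 to 680.2 FPKM in PBS.

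Of 6 cholangiocyte (bile duct), 12 sinusoidal endothelial and 12 stellate cell genes measured, 0 were higher, beside 1.36% of all genes. In lists this small, 0 is close to that share. Under 1 FPKM, 1 member of each list lay at least 2-fold above both albumin-low libraries, with no minimum of reads. Over all 10206 genes under 1 FPKM, 388 did. Among the list members, Colec10, a stellate cell collectin, was 0.144 and 0.157 FPKM (23 and 28 reads) in sHA-X-3 and sHA-X-4 and at 0 elsewhere. Gata4, an endothelial factor, was 0.0728 and 0.196 FPKM (9 and 27 reads). Krt19, a bile duct and mesothelial keratin, was 0.0885, 2.69, 0.422 and 0.133 FPKM. The sinusoidal gene Clec4g was 25.7, 23.4, 27.2 and 22.5 FPKM, and the stellate cell gene Lrat was 2.25, 3.04, 1.95 and 2.40 FPKM. Of the fetal list, Afp, the fetal albumin relative, was 1.05, 1.12, 2.01 and 1.81 FPKM in sHA-X-1 to sHA-X-4 and between 1.41 and 1.69 FPKM in PBS.

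Spleen cell and process lists did not follow Alb. The 13 lists of B, plasma, T and natural killer cells, macrophages, neutrophils and monocytes, erythroid cells, platelets, matrix, cytokines, interferon response, cell cycle, secretion and stress held 292 measured genes, and 0 were higher or lower by the rule. Over all genes, 1.36% were higher and 0.00836% lower by the rule. Of the 292, 28 lay above and 33 below both albumin-low libraries by any amount, where 14.1% of all genes lay above and 19.4% below. For example, Tgfb1, the growth factor that the study's title names, was 97.6, 82.8, 90.9 and 79.8 FPKM in sHA-X-1 to sHA-X-4 and 90.2 to 100.1 FPKM in PBS.

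Small differences without overlap occurred in some groups. Of 23 interferon-stimulated genes, 7 lay above both albumin-low libraries, against 14.1% of all genes, and 0 below. Their gaps were at most 1.39-fold. Gbp2, a guanylate-binding protein, was 37.9, 39.6, 55.2 and 55.8 FPKM. Cxcl9, an interferon-gamma-induced chemokine for T cells, was 29.3, 30.2, 46.4 and 49.9 FPKM, a gap of 1.54-fold. Of 16 B cell genes, 12 lay below both albumin-low libraries, against 19.4% of all genes, with gaps of at most 1.09-fold.

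Of 39 matrix genes, 12 lay below both albumin-low libraries by at most 1.31-fold, against 19.4% of all genes, and 0 above. Dcn, the proteoglycan decorin, was 122.4 and 120.7 FPKM in sHA-X-1 and sHA-X-2 and 91.9 and 78.2 FPKM in sHA-X-3 and sHA-X-4. Col1a1, a collagen I chain, overlapped, at 84.9, 38.2, 57.3 and 48.9 FPKM. The summed level of the matrix list was 1839 FPKM in sHA-X-1 and 1433 to 1473 FPKM in the other 3.

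Other cell types varied among the sHA-X libraries in another order. Plasma cell genes summed to 1252, 2575, 1251 and 2714 FPKM in sHA-X-1 to sHA-X-4, high in 1 library of each pair. Jchain, the joining chain of secreted IgM and IgA, was 736.5, 1661, 739.9 and 1812 FPKM, and Mzb1, an antibody-folding protein, was 155.2, 320.6, 156.8 and 321.3 FPKM. Erythroid genes summed to 28508, 19259, 30619 and 21410 FPKM, low where plasma cell genes were high. For both lists the pairs thus overlapped. The causes were not tested.

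**Figure D5:**
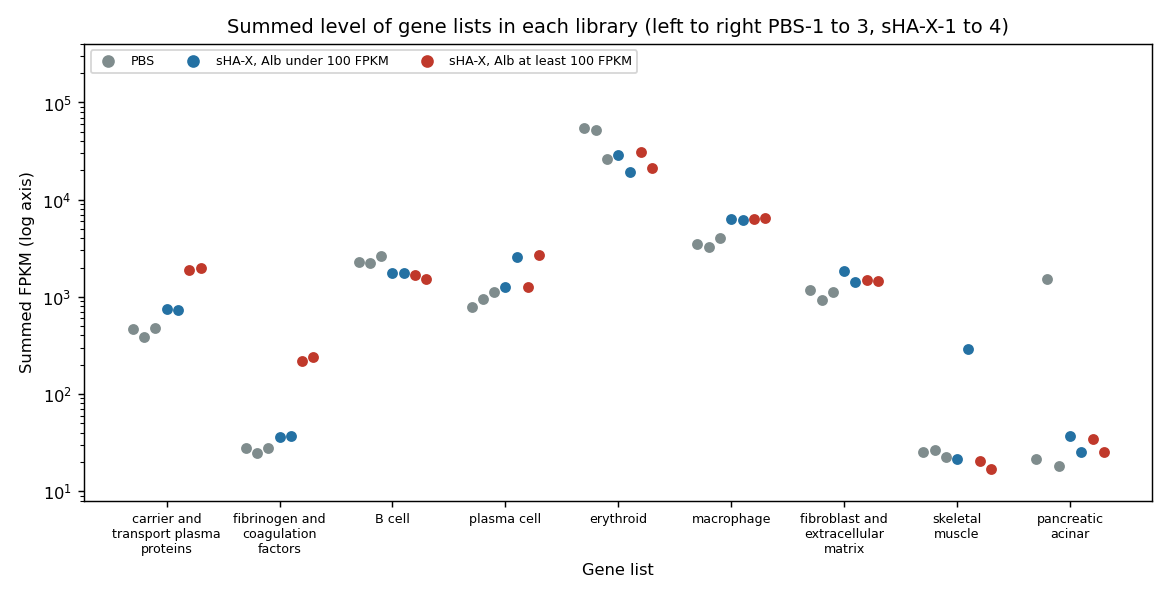
Summed FPKM of the members of 9 gene lists in each library, on a log axis, with PBS in grey, albumin-low sHA-X libraries in blue and albumin-high ones in red, each in replicate order. The coagulation list is highest in the albumin-high libraries (216.3 and 238.6), plasma cell genes are high in sHA-X-2 and sHA-X-4, muscle genes in sHA-X-2 and pancreatic genes in PBS-2.

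The 1 gene that was lower in both albumin-high libraries was Pvalb, parvalbumin, a calcium buffer of fast muscle. It was 0.210 FPKM (7 reads) in sHA-X-1, 19.1 FPKM (591 reads) in sHA-X-2, and 0.0573 and 0.0514 FPKM (2 reads each) in sHA-X-3 and sHA-X-4, with 1 to 4 reads in PBS. It reached a mean of 1 FPKM through sHA-X-2 alone, and its gap rests on 7 reads against 2. Its level in sHA-X-2 went with that of other muscle genes there. Acta1, the skeletal muscle actin, was 0.120, 39.0, 0.267 and 0.0341 FPKM, and Ckm, muscle creatine kinase, was 0, 31.9, 0.0423 and 0 FPKM.

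The sHA-X libraries were also compared with PBS. By the same rule over all 7 libraries, 106 of 11920 genes (0.889%) were higher in every sHA-X library than in every PBS library, and 7 (0.0587%) were lower. Of the 106, 14 (13.2%) were also among the 163 (8.59% of these), where 1.36% of all genes were: Apoa5, Apob, Azgp1, Cyp2f2, Fetub, Fgb, Hpx, Inmt, Kng1, Mup15, Saa1, Saa2, Sult2a8 and Vtn. The comparisons share the sHA-X libraries. The counts were 122 and 13 without sHA-X-2, and 139 and 12 without PBS-2.

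Of the other 92 genes, 64 overlapped between the albumin pairs, 21 lay below and 7 above both albumin-low libraries, beside 19.4% and 14.1% of all genes. Ccl8, a monocyte-attracting chemokine, was 96.9, 37.9, 52.6 and 52.2 FPKM in sHA-X-1 to sHA-X-4 and at most 0.735 FPKM in PBS. Mmp3, a matrix metalloproteinase, was 43.7, 13.7, 26.7 and 24.6 FPKM, and 1.65 to 2.09 FPKM in PBS. For 50 of the 92 the highest sHA-X library was sHA-X-1, the library with the lowest Alb of the 4.

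The edge of the rule fell among genes with modest gaps. The smallest gaps inside it were those of Serpina10 (2.43 and 2.22 FPKM against 4.87 and 5.57 FPKM), a protease inhibitor, and Inmt (2.91 and 2.41 against 5.91 and 7.65 FPKM), a methyltransferase. Just outside, after Cyp7b1, came Mttp, the lipid transfer protein that loads Apob, at 0.504 and 0.741 FPKM against 1.59 and 1.47 FPKM. Below the mean of 1 FPKM, 130 liver list genes were not counted. Of these, 72 had at least 20 reads in both albumin-high libraries and a gap of at least 2-fold, such as Otc, the second enzyme of the urea cycle, at 0.00658, 0.0496, 0.880 and 0.975 FPKM. Asking for reads in the albumin-high libraries favours genes high there, and the same share over all genes was not computed.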

How the data were processed

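The authors deposited 1 table of FPKM values for 22173 genes in 7 libraries, and its header does not name the unit. It was read as FPKM, since the values of a gene are whole multiples of a step that falls as library size grows. The steps do not by themselves show division by transcript length, so the unit is an assumption. The submitters' processing notes list R 3.2.0, the aligner HISAT2, fastp, DESeq2, HTSeq and the build mm10, with no order or roles. Reads were recovered from the steps for 16889 genes, within 0.002 of a whole read. They were used to show depth, for the shares of reads and for the minimum read counts. Genes above 0 in 1 library (704) were not recovered. Gene lists, members and rules were chosen with earlier results of these data known.

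The genes named were the 15 with the largest gap (FPKM + 0.1, at least 5 FPKM in both albumin-high libraries) and the 15 with the highest level. To these were added the most abundant members of each list and 24 genes named whatever their values. A few of these genes are left out of the text. Any other gene was chosen after its values were seen. None of the lower genes reached 5 FPKM in both albumin-low libraries. Values were handled with Python 3.11.15, pandas 2.3.3 and numpy 2.4.6, and intervals came from scipy 1.17.1. Read recovery and the gap rule were tested on simulated data. Promoters and coordinates are from RefSeq (GRCm38.p6). No source used here states whether the kit kept strand, so reads of a gene and of an antisense partner may be mixed.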

Additional observations from a re-analysis of the deposited data

Results flagged for a closer look

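In the sHA-X group, 62 values (39 summed lists and 23 genes) were checked for a library far from the other 3, and 5 stood out. Chance flags about 1 in 20 of values chosen beforehand. The lists and genes here were chosen with earlier results known, so that rate is no measure for these 5. Of the 5, 4 belonged to sHA-X-2: the summed skeletal muscle genes (287.2 FPKM), Acta1 (39.0 FPKM), Ckm (31.9 FPKM) and Krt19 (2.69 FPKM). The first 3 are all muscle genes and are not independent. The summed fibroblast and extracellular matrix genes were highest in sHA-X-1 (1839 FPKM). Alb, Apoa1, Ttr and Fgb were not among the 5, since their high values come in a pair.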

How the results depend on the processing

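Apoa1, Ttr or Fgb in place of Alb put the same 2 libraries highest. These markers were given together with Alb and are among the 163 higher genes, so this is no independent check. The count of 163 genes higher in both albumin-high libraries was 150 and 160 on the log2(FPKM + 1) and log2(FPKM + 0.1) scales, 186 and 148 with gaps of 1.5-fold and 4-fold, 165 after rescaling, and 140 to 199 with a library left out. It moved to 551 without a filter and to 49 with a mean of at least 5 FPKM. The lower count of 1 moved to 199 without a filter, to 0 with 5 FPKM, on both log2 scales and with a 4-fold gap, and to 4 with a 1.5-fold gap; it was 11 to 40 with a library left out. The count of 106 genes higher in all sHA-X than in all PBS libraries moved to 234 without a filter, 40 with 5 FPKM, 47 on log2(FPKM + 1), and 223 and 27 with gaps of 1.5-fold and 4-fold; it was 104 to 158 with a library left out. The 7 lower genes became 49 without a filter, 3 with 5 FPKM, 2 on log2(FPKM + 1), and 37 and 0 with gaps of 1.5-fold and 4-fold, and 8 to 13 with a library left out. Rescaling changed 4 of 78 list counts, and the bile acid list went from 1 to 2 higher. With 100 bases, the share of promoters of higher genes was 1.37% for the FOXA letters and 15.8% for the TATA box. No paired analysis was possible because the results come from no test.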

Other observations

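The mesothelial list summed to 358.4, 295.1, 389.0 and 237.0 FPKM in sHA-X-1 to sHA-X-4 and to 88.9, 69.8 and 105.2 FPKM in PBS replicates 1 to 3. Most of each sHA-X sum was 1 member, Slpi. Slpi was 349.2, 247.7, 374.9 and 226.6 FPKM in sHA-X and 61.4, 54.8 and 81.6 FPKM in PBS. The order of the sums is therefore that of Slpi and does not describe the lining of the peritoneum and spleen. Krt19, another member, was 0.0885, 2.69, 0.422 and 0.133 FPKM in sHA-X and 1.36, 0.530 and 0.612 FPKM in PBS. Macrophage genes summed to 6357, 6203, 6314 and 6529 FPKM in sHA-X and 3510, 3283 and 4053 FPKM in PBS. For them, all 4 sHA-X libraries were above all 3 PBS libraries, and the albumin pairs overlapped. Cell cycle genes summed to 1491, 1224, 1579 and 1306 FPKM in sHA-X and to 1469, 1949 and 776.4 FPKM in PBS, so PBS-3 was the lowest of the 7 libraries. The causes were not tested.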
